A study of Mus musculus with 20 samples.

Results

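The urea cycle genes and the liver-type glutaminase were followed as a set of 8 genes, namely Nags, Cps1, Otc, Slc25a15, Ass1, Asl, Arg1 and Gls2. They were chosen by symbol, with a rule that used no measured value, although earlier results of these data were known. All 8 were found among the 50559 genes counted in both tables and among the 14333 genes tested. RNA was sequenced from 20 samples of female C57BL/6J mice that the labels give as wild type, with 5 individual tumors for each of 3 plasmid combinations and 5 control livers. Tumors followed hydrodynamic gene transfer, a rapid tail vein injection that carries plasmids into hepatocytes, at an age of 6 to 8 weeks, and were collected when the mice showed signs of tumor growth or had reached an endpoint set beforehand. All tumor groups received a plasmid for the oncogene MYC under the EF1a promoter together with the SB100X Sleeping Beauty transposase. The second plasmid encoded Aldafermin, an engineered analogue of the hormone FGF19, in the Aldafermin+MYC group, human FGF19 in the FGF19+MYC group, and Cas9 with a guide against Trp53 in the sgTrp53+MYC group. The control livers were labelled as not treated, whereas a figure legend of the study describes control livers that received an RFP plasmid. For the sgTrp53+MYC samples the treatment label read none, and their group was taken from the sample titles. The sgTrp53+MYC libraries were deposited in a table of their own, so that for this group the plasmid and whatever else set that table apart, its depth included, cannot be told apart.

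The urea cycle turns ammonia, which is toxic to the brain, into urea for excretion, and hepatocytes around the portal vein are its main site. Carbamoyl phosphate is made from ammonia and bicarbonate in mitochondria and joined to ornithine, the citrulline formed takes up nitrogen from aspartate in the cytosol, and arginine is split into urea and ornithine, which returns to the mitochondria. Liver-type glutaminase releases ammonia from glutamine in the same portal hepatocytes, whereas cells around the central vein capture what ammonia escapes by making glutamine.

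The members lay on 8 different stretches of the mouse genome (GRCm39, the build named mm39 in the submitters' notes). Nags was on chromosome 11 from 102036339 to 102040303, Cps1 on chromosome 1 from 67161988 to 67270418, Otc on chromosome X from 10118503 to 10187265 and Slc25a15 on chromosome 8 from 22865516 to 22889423. Ass1 was on chromosome 2 from 31352181 to 31410862, Asl on chromosome 5 from 130040099 to 130058088, Arg1 on chromosome 10 from 24791118 to 24803817 and Gls2 on chromosome 10 from 128030316 to 128045873. RefSeq promoter windows (GRCm38.p6, 250 bases upstream of the annotated start) were at hand for 4 members, Otc, Ass1, Nags and Slc25a15. The windows of 3 of them are shown, because they span the lowest and the highest CpG count of the set and because a pair of them holds the letters CACGTG, the E-box that MYC with its partner MAX is known to bind. Capitals mark that E-box.

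Otc (chrX:10252055-10252304, plus strand): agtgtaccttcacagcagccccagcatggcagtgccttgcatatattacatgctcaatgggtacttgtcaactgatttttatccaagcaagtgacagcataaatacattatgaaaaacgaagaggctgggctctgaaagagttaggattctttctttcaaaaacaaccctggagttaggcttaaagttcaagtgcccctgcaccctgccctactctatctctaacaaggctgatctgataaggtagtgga
Ass1 (chr2:31470020-31470269, plus strand): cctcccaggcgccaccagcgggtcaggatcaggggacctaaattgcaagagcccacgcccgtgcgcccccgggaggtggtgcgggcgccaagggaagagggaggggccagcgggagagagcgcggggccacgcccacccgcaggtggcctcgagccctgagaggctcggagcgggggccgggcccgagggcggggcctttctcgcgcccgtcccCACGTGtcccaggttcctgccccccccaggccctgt
Slc25a15, second start (chr8:22398278-22398527, minus strand): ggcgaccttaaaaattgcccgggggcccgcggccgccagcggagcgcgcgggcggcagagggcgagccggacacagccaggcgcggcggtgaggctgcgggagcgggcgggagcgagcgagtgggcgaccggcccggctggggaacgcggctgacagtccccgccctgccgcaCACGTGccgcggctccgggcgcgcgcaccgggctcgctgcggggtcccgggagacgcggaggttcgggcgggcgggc

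The Otc window held 1 CpG dinucleotide and the Nags window 11, against 23 in the Ass1 window and 43 in the second Slc25a15 window. The median was 6 over 27025 promoter windows, the first listed for each gene, which leave out second windows. CACGTG, which reads the same on both strands, stood 36 bases before the RefSeq start of Ass1 and 77 bases before the second of Slc25a15. Of the first listed windows of all genes 6.05% held it. Bases just past the Ass1 start were found 143 bases into the transcript used here for gene lengths, so this E-box may lie inside it. Those just past the Slc25a15 starts were not found in its transcript. The windows of Otc and Nags and the first window of Slc25a15 did not hold CACGTG. Other motifs were searched on both strands and were found in no window of these members. They were the TATA box as TATAAA (in 13% of the first listed windows of all genes), the C/EBP motif as TTGCNNAA (9.55%), the HNF4 motif as CAAAGNNCA (5.47%), the NF-Y motif as CCAAT (34.5%) and the HNF1 motif (0.0629%).

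Between 18004977 and 44427184 reads were counted on genes in the Aldafermin+MYC, FGF19+MYC and liver libraries, and between 54042455 and 66354724 in the sgTrp53+MYC libraries. Each member had from 797 to 163893 reads per library. Levels are CPM, the reads of a gene scaled to a common library size, after adjustment by the trimmed mean of M values (TMM). Trp53 was at 46.8 ± 22.6 CPM in the sgTrp53+MYC tumors (SD, n = 5), 138 ± 32.5 in Aldafermin+MYC, 139.5 ± 17.9 in FGF19+MYC and 32.8 ± 2.98 in livers. It was higher in the other two tumor groups than in the sgTrp53+MYC group (log2 fold change 1.57, SE 0.24, adjusted p = 0.000159 by edgeR's quasi-likelihood test with Benjamini-Hochberg adjustment, used for every adjusted p below unless another test is named). All 10 markers of hepatocytes were detected in every group and all 10 were lower in each tumor group than in livers. Of all genes 31.9%, 32.9% and 33% were called lower in Aldafermin+MYC, FGF19+MYC and sgTrp53+MYC tumors. Fewer cells of a type and less RNA per cell cannot be told apart in these bulk samples.

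All 8 members fell in all 3 tumor groups when compared with livers. The decline was seen in the enzymes of the mitochondria and of the cytosol alike, and for each member every tumor library was below every liver library. In Aldafermin+MYC tumors 8 of 8 members were called lower at an adjusted p under 0.05, where 31.9% of all genes tested were called lower. The same count was 8 of 8 in FGF19+MYC tumors (32.9% of all genes) and 8 of 8 in sgTrp53+MYC tumors (33% of all genes). Groups that did not overlap in this direction were found for 27.5%, 30.1% and 27.4% of all genes in the 3 comparisons. The median log2 fold change of the members was -2.31, -2.37 and -2.16, respectively, whereas it was 0.13, 0.06 and 0.07 over all genes tested. Before any scaling, the 8 genes took 0.983% ± 0.143 of all reads on genes in livers (SD, n = 5), 0.285% ± 0.0730 in Aldafermin+MYC, 0.291% ± 0.0383 in FGF19+MYC and 0.408% ± 0.0638 in sgTrp53+MYC tumors. The lowest liver stood at 0.729% and the highest tumor at 0.481%.

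**Figure D1:**
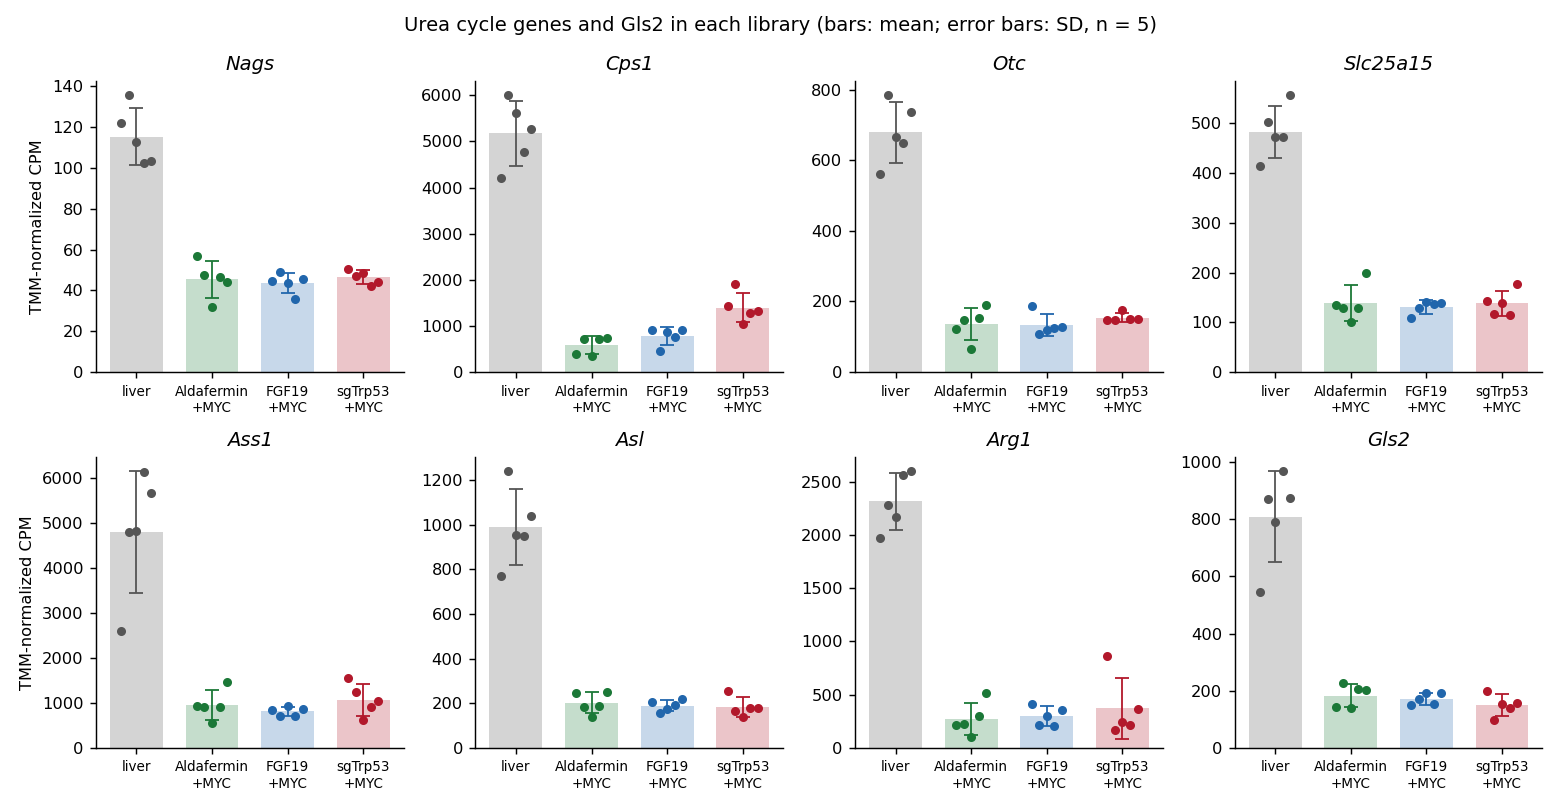
TMM-normalized CPM of the 8 members (vertical axes, linear and starting at 0) in the 20 libraries, by group; points are libraries, bars are means and error bars are SD with n = 5. In each panel all 15 tumor libraries lie below all 5 livers, and Cps1 is the one gene in which the sgTrp53+MYC libraries lie above those of the other tumors.

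Nags makes N-acetylglutamate, the activator without which carbamoyl phosphate synthetase does not work. It ranged over 102 to 136 CPM in livers, 31.6 to 56.8 in Aldafermin+MYC, 35.9 to 49.1 in FGF19+MYC and 42.0 to 50.2 in sgTrp53+MYC tumors. With log2 fold changes of -1.34, -1.40 and -1.31 (SE 0.14 in each) and adjusted p-values of 4.93e-08, 2.92e-08 and 6.52e-08, it had the smallest fall of the set in every tumor group. The exons of Nags share 27.3% of their bases with Gm11586 on the opposite strand.

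Cps1 encodes the carbamoyl phosphate synthetase of the urea cycle, which takes up free ammonia and sets the pace of the cycle. The 5 livers had 4213, 6008, 5615, 4776 and 5277 CPM. Aldafermin+MYC tumors had 400.3, 711, 342, 711 and 745 CPM and FGF19+MYC tumors 903, 456, 864, 754 and 908 CPM. The sgTrp53+MYC tumors had 1434, 1906, 1034, 1289 and 1315 CPM, so that every one of them was above all 10 libraries of the other tumors and below all livers. Against livers the log2 fold change was -3.15 (SE 0.26, adjusted p = 2.51e-09) in Aldafermin+MYC and -2.74 (SE 0.26, adjusted p = 1.46e-08) in FGF19+MYC tumors, or falls of 8.90-fold and 6.66-fold. In sgTrp53+MYC tumors it was -1.89 (SE 0.25, adjusted p = 1.38e-06), a 3.71-fold fall.

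Otc, the X-linked ornithine transcarbamylase that joins carbamoyl phosphate to ornithine, was measured at 559.9, 785, 667, 648 and 736 CPM in livers. The values were 122, 148, 66.5, 153 and 190.1 in Aldafermin+MYC, 186, 109, 118, 125 and 128 in FGF19+MYC and 148, 147, 177, 149.5 and 149 in sgTrp53+MYC tumors. The 3 tumor groups overlapped and lay apart from the livers. The log2 fold changes were -2.32, -2.35 and -2.14 (SE 0.22 in each), with adjusted p-values of 1.77e-08, 1.51e-08 and 4.77e-08.

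Slc25a15 carries ornithine back into the mitochondria in exchange for citrulline. Its range was 414 to 557 CPM in livers, 101 to 198 in Aldafermin+MYC, 108 to 141 in FGF19+MYC and 115 to 177 in sgTrp53+MYC tumors. It fell by 3.51-fold, 3.69-fold and 3.50-fold, respectively, with adjusted p-values of 1.63e-08, 9.17e-09 and 1.57e-08. Slc25a2, a second ornithine carrier, had at most 9 reads in any library and was not tested.

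The cytosolic steps fell as well. Ass1, the argininosuccinate synthetase that brings in the nitrogen of aspartate, ranged over 2589.9 to 6134 CPM in livers, 555 to 1466 in Aldafermin+MYC, 701 to 931 in FGF19+MYC and 611 to 1541 in sgTrp53+MYC tumors. Its log2 fold changes were -2.33 (SE 0.28), -2.57 (SE 0.28) and -2.17 (SE 0.28), with adjusted p-values of 4.49e-07, 1.37e-07 and 1.01e-06. The level of Ass1 is uncertain, since the processed pseudogene Gm5424 is 99.5% identical to its transcript over 1240 aligned bases and held reads equal to between 15.5% and 21.3% of those of Ass1 in every library.

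Asl, the lyase that splits argininosuccinate into arginine and fumarate, ranged over 769.6 to 1243 CPM in livers and 139 to 252, 157 to 218 and 136 to 256 CPM in the 3 tumor groups in the same order. The log2 fold changes were -2.30, -2.39 and -2.43 (SE 0.20 in each), and the adjusted p-values 4.62e-09, 2.71e-09 and 2.08e-09. The spread of Asl between the 3 tumor groups was thus smaller than its SE.

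Arg1, the liver arginase that releases urea from arginine, was at 1969.9, 2280.4, 2173, 2564 and 2608 CPM in livers. Aldafermin+MYC tumors had 209.7, 225, 105, 298 and 515 CPM, FGF19+MYC tumors 416, 211, 299, 205 and 354 CPM and sgTrp53+MYC tumors 867, 171, 245, 211 and 364 CPM. It varied most between tumors of 1 group, with a coefficient of variation of 56.6%, 30.6% and 77.1% in the 3 tumor groups and 11.6% in livers, and the first sgTrp53+MYC tumor stood far above the other 4. The log2 fold changes were -3.10 (SE 0.44, adjusted p = 3.99e-06), -2.96 (SE 0.44, adjusted p = 6.48e-06) and -2.64 (SE 0.43, adjusted p = 2.07e-05). Without the first sgTrp53+MYC tumor the last became -3.22. Macrophages can also express Arg1, and the summed level of 8 macrophage markers was 447 CPM in the first sgTrp53+MYC tumor and 145 to 237 CPM in the other 4 of that group. In Aldafermin+MYC tumors the third library had the highest sum of these markers, 940.4 CPM, and the lowest Arg1. The first sgTrp53+MYC tumor also had the highest summed hepatocyte markers of its group, 14378 CPM against 4760 to 10388 CPM in the other 4. In Aldafermin+MYC and FGF19+MYC tumors the library highest in these markers was not the highest in Arg1. The part of macrophages or hepatocytes in the Arg1 values was not tested. Arg2, the mitochondrial arginase of other tissues, had at most 23 reads in any library.

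Gls2, the liver-type glutaminase that supplies ammonia next to the cycle, was at 546, 869.7, 789, 969 and 875 CPM in livers. Aldafermin+MYC tumors had 143, 226, 138, 204 and 202, FGF19+MYC tumors 149.9, 169.7, 191, 152 and 191 and sgTrp53+MYC tumors 199, 95.6, 154, 139 and 158 CPM. The fall was 4.43-fold, 4.74-fold and 5.42-fold, with adjusted p-values of 1.9e-08, 1.05e-08 and 3.46e-09. Exons of Gls2 share 26.3% of their bases with Spryd4 on the opposite strand, whose reads came to 5.52% to 43.5% of those of Gls2 in a library, so that the level of Gls2 is uncertain. Exons of Arg1 share 19.1% with Gm36172 and of Asl 2.52% with Gm73169. The strand setting of the counting was not given in the sources used here. Reads that could belong to more than 1 gene made up 11.1% to 14.6% of the sgTrp53+MYC read pairs and 3.03% to 6.30% of the others, and their part in the values of Nags, Arg1, Asl and Gls2 was not tested.

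**Figure D2:**
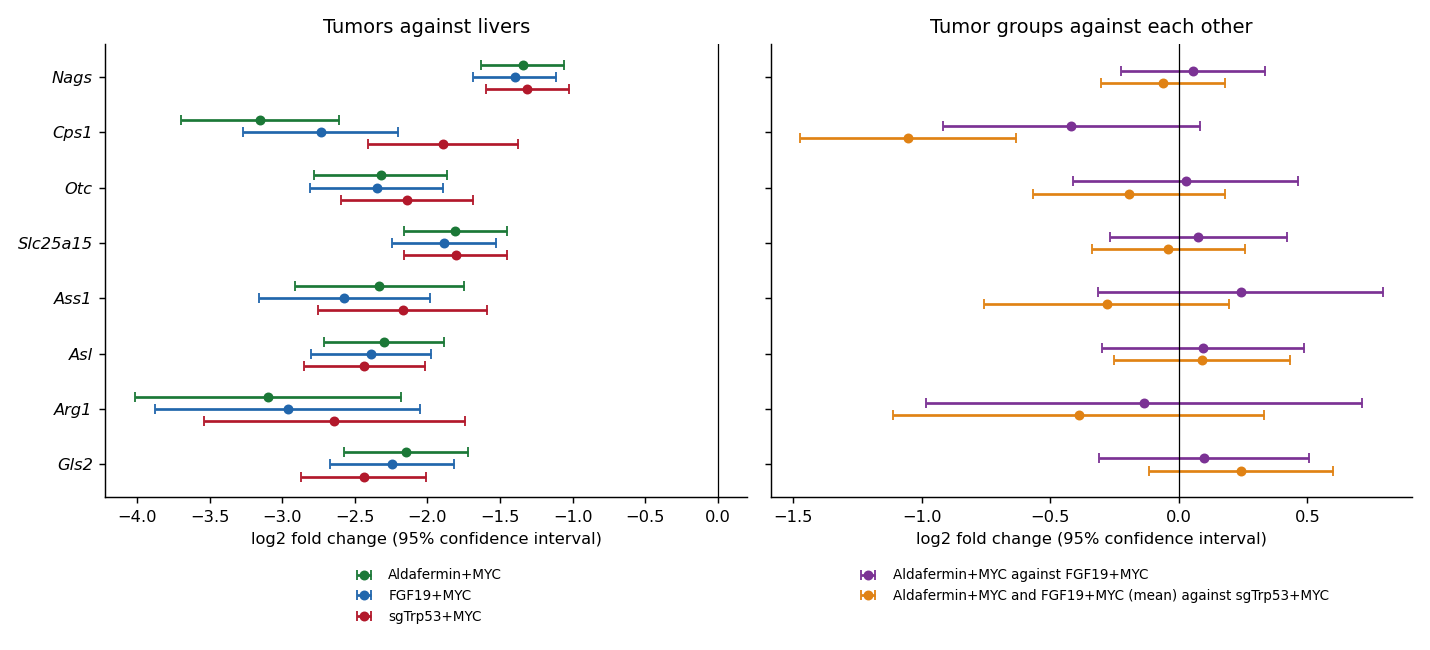
log2 fold changes (horizontal axes) of the 8 members with their 95% confidence intervals from the edgeR model, in the 3 tumor groups against livers (left) and between tumor groups (right). All intervals on the left lie below 0, and on the right the interval of Cps1 in the comparison with sgTrp53+MYC tumors is the one that does not reach 0.

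The order of the members by level per transcript length changed little. In livers the mean CPM per kb of transcript was 2726 ± 773 for Ass1 (SD, n = 5), 1439 ± 167 for Arg1, 932 ± 127 for Cps1, 373 ± 64.5 for Asl, 311 ± 61.7 for Gls2, 288 ± 36.5 for Otc, 139 ± 14.99 for Slc25a15 and 56.8 ± 6.90 for Nags. Asl, Gls2 and Otc overlapped in their libraries, as did Ass1 and Arg1, whereas the other neighbours in this order did not. Aldafermin+MYC and FGF19+MYC tumors had the same order of means. In sgTrp53+MYC tumors Cps1, at 251 ± 57.7 CPM per kb, came before Arg1 at 231 ± 178, and Otc at 65.2 ± 5.39 before Gls2 at 57.3 ± 14.3, but the libraries of both pairs overlapped.

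Aldafermin and FGF19 were compared directly, since the former was derived from the latter. None of the 8 members was called between the Aldafermin+MYC and the FGF19+MYC tumors, and 0 of 14333 genes (0%) were called by edgeR's quasi-likelihood test. At an unadjusted p under 0.05, 1048 genes (7.31%) passed and none of the members was among them. With DESeq2 96 genes passed and with the likelihood ratio test of edgeR 59, and again no member. The log2 difference, Aldafermin+MYC minus FGF19+MYC, was largest in size for Cps1 at -0.42 (95% interval -0.92 to 0.08, adjusted p = 0.789). For Ass1 it was 0.24 (95% interval -0.32 to 0.80) and for Arg1 -0.14 (95% interval -0.98 to 0.71). The other 5 lay between 0.03 for Otc and 0.10 for Gls2, and the narrowest interval, that of Nags, ran from -0.23 to 0.34. These intervals hold differences of the size shown and do not show that the groups are alike.

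Between the tumors with an FGF19 receptor ligand and the sgTrp53+MYC tumors, 1 of 8 members was called lower and 0 higher. Of all genes 12.1% were called lower and 11.6% higher, so that this count was near the background. Cps1, the member called, was lower in the mean of the Aldafermin+MYC and FGF19+MYC groups by 2.08-fold (log2 fold change -1.05, SE 0.20, 95% interval -1.47 to -0.63, adjusted p = 0.00106). Its libraries did not overlap, which held in this direction for 2.42% of all genes. Each ligand group on its own gave the same call, with -1.26 (adjusted p = 0.00178, 7.53% of all genes called lower) for Aldafermin+MYC and -0.85 (adjusted p = 0.0226, 7.78% of all genes) for FGF19+MYC. Both share the sgTrp53+MYC libraries. The log2 fold change stayed between -1.15 and -0.92 when each of the 15 tumors was left out in turn, and it was called each time.

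The other 7 members were not called, with log2 differences from -0.39 for Arg1 (95% interval -1.11 to 0.33) to 0.24 for Gls2 (95% interval -0.12 to 0.60). Without the first sgTrp53+MYC tumor the value of Arg1 changed sign, to 0.19, and was again not called. For Otc, the next enzyme after Cps1, the difference was -0.19 (95% interval -0.57 to 0.18), and for Nags, its activator, -0.06 (95% interval -0.30 to 0.18). Of 10 hepatocyte markers, 5 were higher in the ligand groups, where 11.6% of all genes were called higher, 0 were lower and 5 were not called. Their log2 differences ran from -1.39 for Cyp3a11, not called, to 1.70 for Apoa1, and the called ones included Alb with 1.65 (adjusted p = 0.0143) and Apoa1 (adjusted p = 0.000709). Of 8 macrophage markers 5 were higher in the ligand groups. The 4 cholangiocyte markers were lower, where 12.1% of all genes were called lower. Their summed levels were 0.0496 to 5.98 CPM in the ligand groups. They were 312 CPM in the second sgTrp53+MYC tumor and 0.640 to 3.99 CPM in the other 4. Their part in the Cps1 difference was not tested, and without the second sgTrp53+MYC tumor the Cps1 log2 fold change was -0.92 (adjusted p = 0.00523).

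The tumors also differed in the summed level of markers of central vein hepatocytes. The summed CPM of 12 markers of these cells was 9302 to 19798 in livers and 240.0 to 664 in 12 of the 15 tumors. It was 1739 in the fourth Aldafermin+MYC, 2585 in the fifth FGF19+MYC and 1192 in the first sgTrp53+MYC tumor. The same 3 libraries had the highest summed level of 10 hepatocyte markers in their groups, at 30075, 37810 and 14378 CPM. More RNA of central vein cells and more hepatocyte RNA in general were not told apart. With these 3 libraries left out together, a choice made after seeing the data, 8 of 8 members were again called lower in each tumor group, and Cps1 was again the one member called against sgTrp53+MYC tumors (log2 fold change -1.12, adjusted p = 0.00312).

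Some libraries were low or high for most members of the set. In Aldafermin+MYC tumors the third library had the lowest value of all 8 members and the fifth the highest of 6. In sgTrp53+MYC tumors the first had the highest of 5, and among livers the first had the lowest of 7. The third Aldafermin+MYC library also had the highest level of stellate cell and fibroblast markers. Summed over 7 markers it was 1515 CPM, against 156 to 499 CPM in the other 4. The part of these cells in its low values was not tested. Over the 15 tumors Pearson's r of log2 CPM was between -0.21 and 0.72 for the 28 pairs of members, with a median of 0.44. After each gene was centred on its group means it was between 0.12 and 0.82, with a median of 0.47. The closest pair was Ass1 and Asl, the successive cytosolic enzymes (0.82 after centring), followed by Asl and Arg1 (0.78) and Ass1 and Arg1 (0.74). The loosest was Nags and Cps1 (0.12). These values describe libraries that share depth, scaling and tissue makeup.

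Among 9060 genes at a mean of 10 CPM or more in tumors, the gene outside the set with the closest pattern over the 15 tumors was Gm5424 for Ass1 (r = 0.95), Scp2 for Arg1 (0.94), Fra10ac1 for Cps1 (0.89), Bckdha for Otc (0.88), Hypk for Asl (0.86), Fam50a for Gls2 (0.82), Glo1 for Slc25a15 (0.82) and Mrpl38 for Nags (0.75). The first of these is the pseudogene of Ass1 named above. After centring on group means, r in the same order was 0.97, 0.94, 0.73, 0.87, 0.87, 0.78, 0.86 and 0.79. Each gene is the best of 9060 over 15 libraries, and such a maximum can be high by chance, which was not tested.

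Cad, the cytosolic enzyme that makes carbamoyl phosphate for pyrimidines, went up where Cps1 went down. It ranged over 9.25 to 17.8 CPM in livers, 156 to 351 in Aldafermin+MYC, 221 to 371 in FGF19+MYC and 135 to 358 in sgTrp53+MYC tumors. It rose with log2 fold changes of 4.55, 4.74 and 4.43 (adjusted p = 1.08e-10, 6.67e-11 and 1.28e-10). The log2 ratio of Cps1 to Cad was 8.77 ± 0.39 in livers (SD, n = 5), 1.01 ± 0.84 in Aldafermin+MYC, 1.23 ± 0.63 in FGF19+MYC and 2.46 ± 0.67 in sgTrp53+MYC tumors. Each tumor group lay apart from livers by a two-sided exact permutation test (p = 0.00794, the smallest that 5 against 5 allows, adjusted p = 0.0198 over 10 tests of 2 ratios). The ligand groups minus the sgTrp53+MYC group gave -1.33 on the log2 scale (exact permutation p = 0.00599, adjusted p = 0.0198), although their libraries overlapped. Cad itself was not called in this comparison (0.22, 95% interval -0.25 to 0.68). The other ratio, Arg1 to Arg2, rested on the 0 to 23 reads of Arg2 in a library, with 0 in 2 of the Aldafermin+MYC tumors. It was called against livers in FGF19+MYC tumors (-2.21, exact permutation p = 0.0159, adjusted p = 0.0317). This call was lost in 4 of 10 cases with 1 library left out, and with a prior count of 2 the other tumor groups were called as well.

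**Figure D3:**
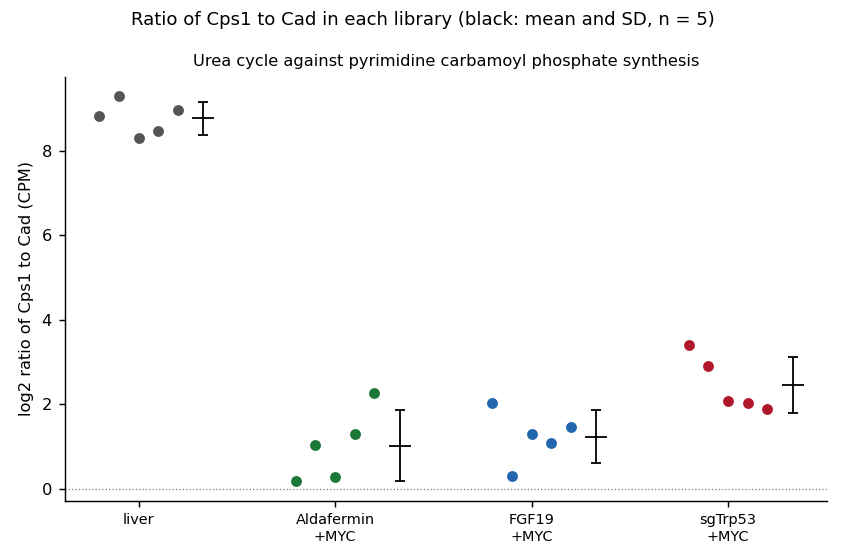
log2 ratio of the CPM of Cps1 to that of Cad (vertical axis) in the 20 libraries; coloured points are libraries, black marks are the mean and SD with n = 5, and the dotted line marks equal CPM. Livers lie between 8.30 and 9.28, and the highest tumor, of the sgTrp53+MYC group, reaches 3.41.

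Genes that handle ammonia and glutamine moved in both directions. Of 14 genes in this list 13 were tested, and in each tumor group 3 were higher and 9 lower than in livers, where 38.4%, 36.9% and 36.9% of all genes were called higher in Aldafermin+MYC, FGF19+MYC and sgTrp53+MYC tumors and 31.9%, 32.9% and 33% lower. The 3 genes that rose were Asns, Slc1a5 and Slc7a5. Asns, which makes asparagine from aspartate and glutamine, went from 0.780 ± 1.10 CPM in livers to 261 ± 56.1, 269 ± 54.5 and 263 ± 52.0 CPM in the 3 tumor groups (SD, n = 5). The glutamine importer Slc1a5 had log2 fold changes of 5.01, 5.09 and 5.05, and Slc7a5, which exchanges glutamine for large neutral amino acids, 4.26, 4.59 and 4.00. Glul, the glutamine synthetase of central vein hepatocytes, fell from 892 to 1862 CPM to 178 to 476, 154 to 475 and 117 to 246 CPM, with adjusted p-values of 1.98e-06, 2.09e-06 and 9.88e-08. Glud1, the glutamate dehydrogenase that frees ammonia in mitochondria, fell by 2.43-fold, 2.51-fold and 3.12-fold. The hepatocyte glutamine carrier Slc38a3 fell with log2 fold changes of -3.70, -3.61 and -3.96, and the glutamate carrier Slc1a2 with -5.34, -4.56 and -6.09.

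All 5 tested genes of a pyrimidine list, out of 6 in it, were higher in each tumor group than in livers. Of all genes 38.4%, 36.9% and 36.9% were called higher in Aldafermin+MYC, FGF19+MYC and sgTrp53+MYC tumors. Beside Cad these included Dhodh, which oxidizes dihydroorotate (3.15, 3.24 and 3.25 on the log2 scale), and the uridine kinase Uck2 (3.60, 3.68 and 3.77). No gene of the list was called between tumor groups.

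Of 17 genes that handle arginine, ornithine and aspartate 15 were tested. In each tumor group 6 of them were higher than in livers, against 38.4%, 36.9% and 36.9% of all genes, so that this share was near the background. Lower were 7 in Aldafermin+MYC tumors and 8 in each of the other groups, against 31.9%, 32.9% and 33% of all genes. The arginine importer Slc7a1 went from 1.65 ± 0.612 CPM in livers to 91.5 ± 21.8, 132 ± 29.5 and 124 ± 26.0 CPM. Aldh18a1 and Pycr1, which lead from glutamate to proline, rose with log2 fold changes of 6.04, 6.13 and 6.21 for the former and 4.45, 4.39 and 4.34 for the latter. Odc1, which turns ornithine into putrescine and is a known MYC target, rose by 6.67-fold, 6.13-fold and 6.27-fold. Oat, the ornithine aminotransferase of central vein hepatocytes, fell by 11.9-fold, 9.20-fold and 7.27-fold, and Prodh, which degrades proline, had log2 fold changes of -3.18, -2.88 and -2.21. Slc25a13, the carrier that exports aspartate to the step of Ass1, had -1.25, -1.31 and -1.03, and its call was lost in Aldafermin+MYC and sgTrp53+MYC tumors when libraries were scaled by size alone.

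**Figure D4:**
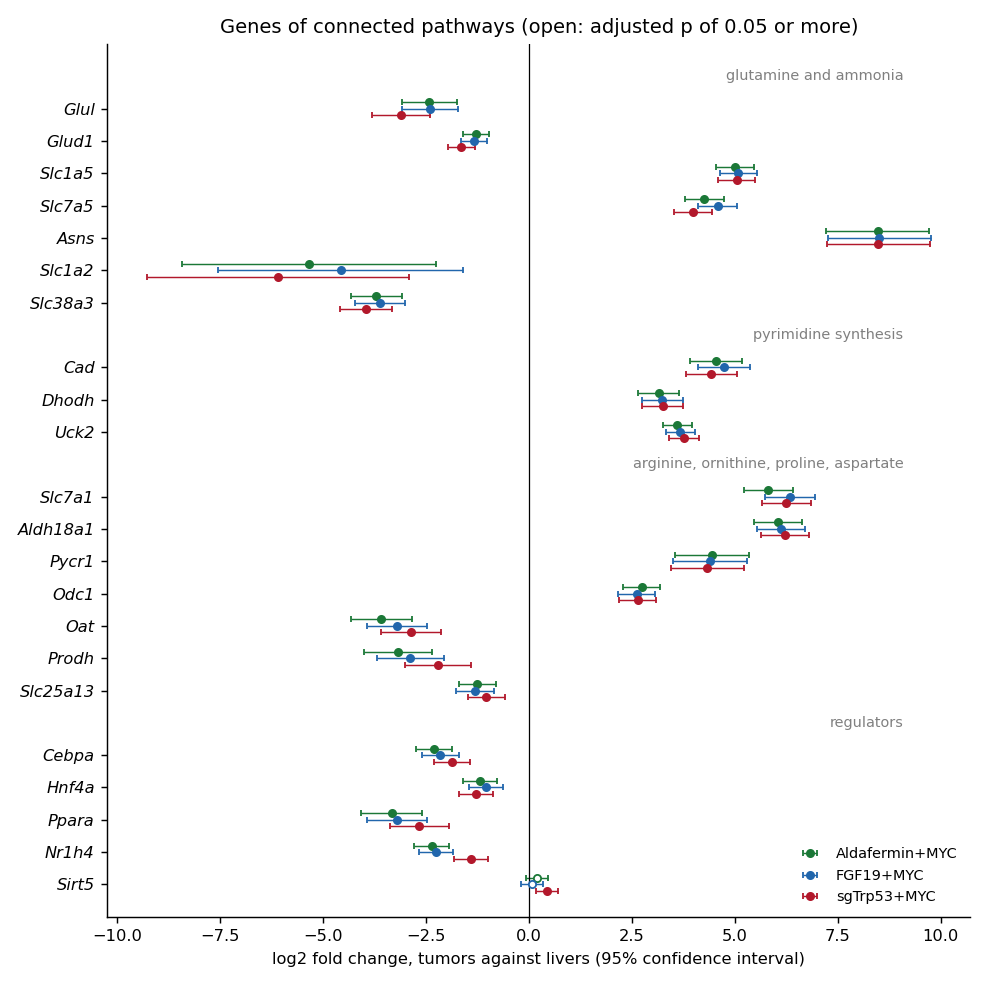
log2 fold changes against livers (horizontal axis) with 95% confidence intervals for 22 genes of connected pathways and regulators, in Aldafermin+MYC (green), FGF19+MYC (blue) and sgTrp53+MYC (red) tumors; filled points have an adjusted p under 0.05. Cad and Asns lie to the right of 0 and Glul, Oat and Cebpa to the left in all 3 groups, and Sirt5 is filled in sgTrp53+MYC tumors alone.

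Of 15 genes known to regulate the cycle, 12 were lower in Aldafermin+MYC tumors than in livers, and 11 were lower in each of the other tumor groups, against 31.9%, 32.9% and 33% of all genes. Cebpa, the C/EBP factor that hepatocytes use to drive urea cycle genes, went from 529, 643, 494, 493 and 426 CPM in livers to 70.8 to 144, 95.8 to 145 and 109.8 to 197 CPM in the tumor groups, with adjusted p-values of 1.22e-08, 3.07e-08 and 1.64e-07. Hnf4a, a nuclear receptor that keeps hepatocytes mature, had log2 fold changes of -1.19, -1.03 and -1.29, but with scaling by library size alone these were -0.34, -0.17 and -0.39 and were not called. It is also 1 of the 10 hepatocyte markers counted above. The fatty acid receptor Ppara fell by 10.04-fold, 9.19-fold and 6.31-fold. Nr1h4, the bile acid receptor FXR, fell with log2 fold changes of -2.36, -2.26 and -1.41. It was also lower in the ligand groups than in sgTrp53+MYC tumors (-0.90, SE 0.16, adjusted p = 0.000616). Of the 15 regulators it was the 1 called there, where 12.1% of all genes were called lower and 11.6% higher. Sirt5, the mitochondrial deacylase that activates Cps1, was at 14.0 to 16.9 CPM in livers and was called higher in sgTrp53+MYC tumors (17.6 to 25.6 CPM, log2 fold change 0.44, adjusted p = 0.00553). In the ligand groups it was at 18.0 ± 2.63 and 16.5 ± 1.12 CPM (SD, n = 5), and scaling by library size alone called it higher there too.

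The size of every fall from livers depended on scaling. TMM factors were 0.61 to 0.68 in livers and 1.00 to 1.31 in tumors, and with library size alone the median log2 fold change of all genes moved from 0.13, 0.06 and 0.07 to 0.97, 0.91 and 0.95. The share of called genes that were higher moved from 54.6%, 52.9% and 52.8% to 78.2%, 77.3% and 77.9%. Under that scaling 8 of 8 members were still called lower in each tumor group, and the smallest change was that of Nags, at -0.50, -0.56 and -0.43 in Aldafermin+MYC, FGF19+MYC and sgTrp53+MYC tumors.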

How the data were processed

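Poly(A) RNA was sequenced (150 bp, paired end) from 20 samples by the authors, who made libraries with a stranded kit, called bases with bcl2fastq 2.20.0.422, aligned reads to mm39 with HISAT2 and counted them on RefSeq genes with htseq-count. Its strand setting was not given in the sources used here. The deposited files hold raw counts, in 1 table for the Aldafermin+MYC, FGF19+MYC and liver samples and another for the sgTrp53+MYC samples. The lines of htseq-count that name no gene held 33.7% to 56.2% of the read pairs and were left out. Both tables were joined by gene, the 14333 genes that reached 1 CPM in 5 or more libraries were tested, and 1 quasi-likelihood model over the 4 groups was fitted in edgeR 4.0.16 (R 4.3.3) with TMM factors and Benjamini-Hochberg adjustment, a call being an adjusted p under 0.05. Intervals are 95% intervals of that model. The step was tested on simulated counts. In them few genes changed, as many up as down, in the FGF19+MYC group alone. The scaling between tumors and livers was therefore not probed. Ratios were compared by two-sided exact permutation tests (SciPy 1.17.1, prior count 0.5). The alternatives were DESeq2 1.42.0, a likelihood ratio test in edgeR with dispersions per gene, other scalings and filters, models of the compared groups alone, the replicate number as a block, and each library left out. Offsets for GC content and length, and leaving out the library richest in central vein markers from each tumor group, were added after seeing the data. All 8 members and 11 companion genes were named whatever their values, and from other lists at most 3 called genes per direction with the largest change. A further planned gene and the ratio it entered are not reported here. Members and lists were chosen with earlier results of these data known. Individual tumors are the replicates, each taken from a different mouse per the study. For the livers the labels do not state this, but the study describes its replicates as biological. The depth given in the report sets the counting error, and whether it acted in other ways was not tested.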

Additional observations from a re-analysis of the deposited data

Results flagged for a closer look

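A library far from the rest of its group was found in 3 of 40 groups of 5 values, where chance alone would give about 2, or 1 in 20. Otc was at 186 CPM in the first FGF19+MYC tumor and at 109 to 128 CPM in the other 4. In the third sgTrp53+MYC tumor Otc was at 177 CPM, against 147 to 149.5 CPM in the other 4, which lay unusually close together. Arg1 was at 867 CPM in the first sgTrp53+MYC tumor and at 171 to 364 CPM in the other 4. The difference between tumor groups in the change from livers was called for Cps1, at -1.05 on the log2 scale. It was the mean of both ligand groups (Aldafermin+MYC, FGF19+MYC) minus the sgTrp53+MYC group. The livers cancel in this difference, so that it is the comparison of tumor groups given above and not a further test. The log2 ratio of Cps1 to Cad, which rests on the same Cps1 values, was called as well at -1.33, although its libraries overlapped.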

How the results depend on the processing

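The 8 members kept their calls against livers in each tumor group under every alternative, and no called value changed sign. Cps1 was called against sgTrp53+MYC tumors in all 28 alternatives, with adjusted p-values from 6.74e-06 to 0.0226. Of the values of single genes, those of the members included, 3983 kept their side of the threshold over all alternatives, 33 newly passed it and 16 no longer did. Uncalled differences between Aldafermin+MYC and FGF19+MYC tumors changed sign for Nags, Otc, Slc25a15, Asl and Arg1 when single libraries were left out. The number of all genes called there was 0, but 2 with DESeq2 size factors, 18 without the 3 libraries richest in central vein markers and 29 without the fourth Aldafermin+MYC tumor. Without a filter on low counts, the share of genes higher among those called between the ligand groups and sgTrp53+MYC tumors moved from 48.9% to 33.1%.

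The ratio of Arg1 to Arg2 was the least stable, since Arg2 had few reads. With a prior count of 2 the difference from livers was -1.74 in Aldafermin+MYC and -1.93 in sgTrp53+MYC tumors, and both were then called. With 1 library left out it lay between -2.61 and -1.78 in FGF19+MYC tumors, no longer called in 4 of 10 cases, and between -2.14 and -1.35 in sgTrp53+MYC tumors, called in 3 of 10.

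The replicate numbers did not pair the samples. The deviations of libraries with the same number correlated at a mean r of -0.02 over 30 pairs (from -0.33 to 0.33), and 1 of 20 libraries was closest to one of its own number. With the number as a replicate block, 8 of 8 members were again lower than in livers in each tumor group, 0 were called between Aldafermin+MYC and FGF19+MYC tumors, and Cps1 was the 1 member called against sgTrp53+MYC tumors (-1.05, adjusted p = 0.00319 by edgeR).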

Other observations

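Of 20 genes of hepatic amino acid catabolism, 19 were lower than in livers in each tumor group, where 31.9%, 32.9% and 33% of all genes were called lower in Aldafermin+MYC, FGF19+MYC and sgTrp53+MYC tumors. Agxt, which detoxifies glyoxylate with alanine, had log2 fold changes of -5.49, -5.37 and -6.51 in the same order, and the tyrosine aminotransferase Tat had -5.72, -4.55 and -6.94. Between tumor groups 5 of the 20 were higher in the ligand groups than in sgTrp53+MYC tumors and 2 lower, where 11.6% of all genes were called higher and 12.1% lower. Aass, which starts lysine breakdown, was higher by 1.84 on the log2 scale (adjusted p = 0.000459 by edgeR), and Kmo, of tryptophan breakdown, by 1.40 (adjusted p = 0.00033 by edgeR).

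Of 10 markers of portal vein hepatocytes, a list that includes Gls2, 8 were lower than in livers in each tumor group, against 31.9%, 32.9% and 33% of all genes. Pck1, which makes glucose from amino acid carbon, was among them with -5.29, -4.39 and -7.36. Aldh1b1, a mitochondrial aldehyde dehydrogenase on the same list, was higher, with 1.69, 1.65 and 2.16. All 12 markers of central vein hepatocytes were lower in each tumor group, against the same shares of all genes called lower. All 5 genes of the fetal liver list and all 4 of the proliferation list were higher in each, where 38.4%, 36.9% and 36.9% of all genes were called higher. Summed over the fetal list, levels were 14832 to 33253 CPM in the 15 tumors and 2.80 to 58.8 CPM in livers.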
